A study of Homo sapiens with 4 samples.

Results

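The clusters described here hold the keratin genes, the genes of keratin-associated proteins (KRTAP) and the genes of the epidermal differentiation complex, and were examined for peaks of H3K9me3, a histone mark of constitutive heterochromatin. They were 5 regions of hg19 set by position, with no peak value in the rule: type I keratins and KRTAP genes on chromosome 17 from 38800001 to 39800000, type II keratins on chromosome 12 from 52500001 to 53350000, the epidermal differentiation complex on chromosome 1 from 151950001 to 153600000, and a proximal and a distal KRTAP block on chromosome 21, from 31500001 to 32300000 and from 45900001 to 46150000. Together they span 4.55 Mb. Overlapping peaks numbered 458 of the 326823 peaks in list 1 and 478 of the 265052 peaks in list 2. Each cluster was set against its flanks, the 1 Mb on either side.

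The data came from U2OS, an established human osteosarcoma line. Cross-linked chromatin was sequenced as input in 2 samples and after pull-down with an H3K9me3 antibody in 2 more. All 4 carry the name KRAB-IDR3-TCF3, which the labels do not explain, and no label says whether samples came from separate cultures. The labels tie list 1 to both input samples and list 2 to both antibody samples, although the peak names in either list call them immunoprecipitations. The lists were therefore assigned to no group and are given side by side. Read counts are absent from both, which leaves the depth unknown. No value has a replicate error and no test between samples was possible. The cell type could not be checked against marker expression. Coverage was not corrected for DNA copy number, and its part in the values below was not tested.

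Keratins are the intermediate filament proteins of epithelial cells and hair, in which an acidic type I chain pairs with a basic type II chain. KRTAP proteins form the matrix between keratin filaments in the hair shaft. The epidermal differentiation complex encodes proteins of the cornified layer of the skin, among them filaggrin, involucrin, loricrin, and the small proline-rich (SPRR) and late cornified envelope (LCE) families, with S100A calcium-binding proteins at its ends. H3K9me3 is bound by HP1 proteins and is known for marking silent, often repetitive or clustered genes.

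By symbol, 198 protein-coding members of these families were found in a RefSeq gene table on GRCh38.p14, which served only for names and gene order because the peaks are on hg19. No gene was therefore given a coverage of its own. The table listed 61 members for the chromosome 17 cluster (27 type I keratins and 34 KRTAP genes), 27 for chromosome 12, 61 for the epidermal differentiation complex (16 S100A, 19 LCE, 11 SPRR, 7 of the filaggrin family and 8 others), 33 for the proximal and 16 for the distal KRTAP block of chromosome 21. RefSeq promoters, from 250 bases before to 50 bases after the gene start, were found for 169 of the 198. Nearly all of them were poor in CpG. A GC content of at least 50% together with an observed over expected CpG ratio of at least 0.6 was met by 4 of 169 (2.37%), against 63.4% of the 15843 promoters found for the 20056 protein-coding genes of the table. The median number of CpG dinucleotides was 2 per promoter among members and 22 over all. The letters TATAAA, searched on both strands, were present in 112 of 169 (66.3%), against 9.63% of all promoters. These are counts of letters and do not show that any factor binds.

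The promoters below show this contrast, with CG dinucleotides in capitals, each written from 5′ to 3′ on the strand of the gene (RefSeq, GRCh38.p14). KRTAP19-1, a hair matrix gene of the proximal chromosome 21 block, and FLG, which encodes filaggrin, each hold 1 CpG. KRT5, the type II keratin of basal epidermal cells, holds 7. S100A6, a broadly expressed calcium-binding protein gene near the distal end of the epidermal differentiation complex, holds 31. All 4 lie on the minus strand of GRCh38.p14: KRTAP19-1 at chr21:30480318-30480617, FLG at chr1:152325190-152325489, KRT5 at chr12:52520345-52520644 and S100A6 at chr1:153535942-153536241.
KRTAP19-1: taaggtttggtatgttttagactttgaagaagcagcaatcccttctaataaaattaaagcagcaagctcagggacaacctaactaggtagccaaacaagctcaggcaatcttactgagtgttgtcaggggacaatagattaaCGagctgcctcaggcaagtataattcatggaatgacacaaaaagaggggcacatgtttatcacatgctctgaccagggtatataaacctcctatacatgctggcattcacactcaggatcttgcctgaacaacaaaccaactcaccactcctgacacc
FLG: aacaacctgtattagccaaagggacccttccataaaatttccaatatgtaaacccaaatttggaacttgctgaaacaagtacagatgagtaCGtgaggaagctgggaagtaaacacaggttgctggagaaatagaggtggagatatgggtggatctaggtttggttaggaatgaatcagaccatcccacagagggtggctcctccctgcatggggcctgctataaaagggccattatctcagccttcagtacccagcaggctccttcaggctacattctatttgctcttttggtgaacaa
KRT5: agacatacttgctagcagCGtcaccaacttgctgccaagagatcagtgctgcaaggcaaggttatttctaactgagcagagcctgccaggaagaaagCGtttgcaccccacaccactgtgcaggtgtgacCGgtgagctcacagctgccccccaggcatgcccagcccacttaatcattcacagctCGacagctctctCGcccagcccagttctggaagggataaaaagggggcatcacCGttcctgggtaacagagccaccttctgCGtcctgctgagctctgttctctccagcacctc
S100A6: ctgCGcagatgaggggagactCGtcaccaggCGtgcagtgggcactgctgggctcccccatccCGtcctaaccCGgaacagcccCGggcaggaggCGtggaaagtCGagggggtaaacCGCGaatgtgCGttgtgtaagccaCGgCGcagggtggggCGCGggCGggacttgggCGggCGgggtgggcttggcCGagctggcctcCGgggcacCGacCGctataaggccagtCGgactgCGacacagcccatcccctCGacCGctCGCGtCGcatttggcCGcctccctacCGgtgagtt

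The 4 CpG-rich promoters all belonged to S100A genes. They were S100A10 (32 CpG) and S100A11 (22), the first 2 members of the complex in gene order, and S100A6 (31) and S100A13 (19), which are among its last 9. The 41 other promoters found for the complex that are not of S100A genes held 6 CpG or fewer. Among the promoters found in the other clusters the highest counts were 13 in KRTAP10-6 and 11 in KRTAP17-1. Promoters were found for only 14 of the 27 chromosome 12 members and for 53 of the 61 on chromosome 17. Members without one include KRT7, KRT18, KRT80, KRT14 and KRT19, whose CpG content is therefore unknown here.

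**Figure D1:**
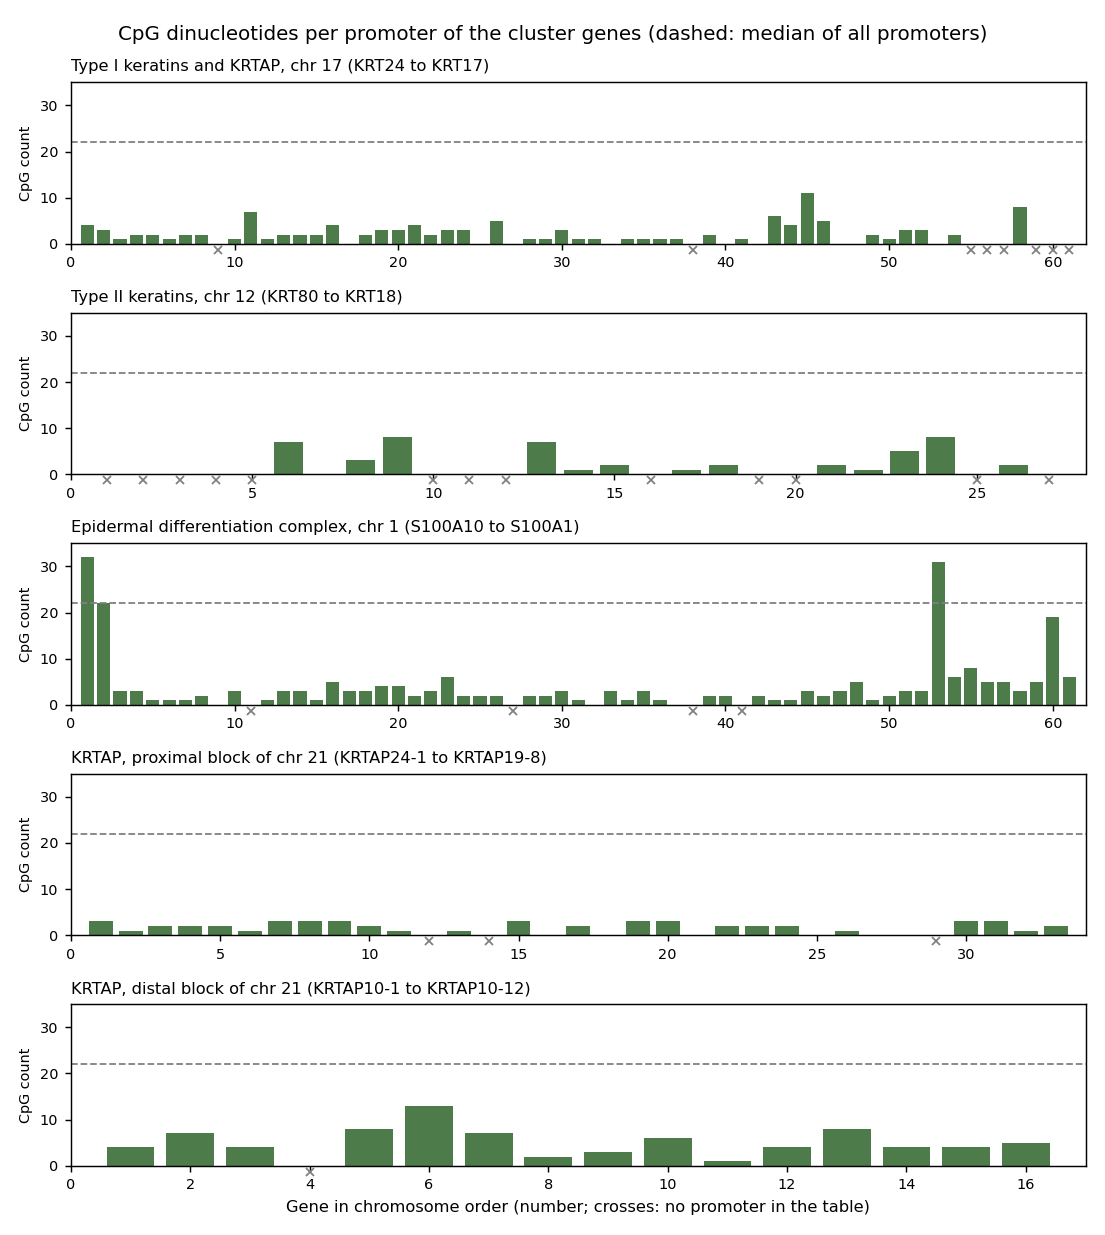
CpG dinucleotides in the 300-base promoter of each member (vertical axis) against its place in the order of genes along the chromosome (horizontal axis), for the 5 clusters, with the median of all protein-coding promoters dashed. The bars that reach 19 or more stand at both ends of the epidermal differentiation complex, and crosses mark members without a promoter in the table.

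All 5 clusters were covered more than their flanks in both lists. In list 1, peaks covered 93.3% of the proximal KRTAP block of chromosome 21, 62.7% of the type II keratin cluster, 61.1% of the distal KRTAP block, 59.1% of the type I keratin and KRTAP cluster and 56.9% of the epidermal differentiation complex. In list 2 the shares were 80.4%, 40.7%, 46.5%, 33.5% and 32.3%. The proximal KRTAP block was the most covered and the epidermal differentiation complex the least covered in both lists. The type II keratin cluster and the distal KRTAP block changed places between the lists.

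The flanks were covered 26.8% and 10.6% around the type I keratins (list 1 and list 2), 30.1% and 13.7% around the type II keratins, 30.3% and 14.1% around the epidermal differentiation complex, and 27.4% and 13.6% around the distal KRTAP block. These 4 clusters were thus covered 1.88 to 2.23 times as much as their flanks in list 1 and 2.29 to 3.43 times as much in list 2. The largest ratio in each list was that of the distal KRTAP block. Their flanks lay below the 45.0% and 25.2% of chromosomes 1 to 22 and X, while the clusters lay above them. Assembly gaps count as uncovered in these whole-chromosome shares. The proximal KRTAP block differed, since its flanks were covered 81.3% and 62.1% themselves, and its ratios were 1.15 and 1.296. For its covered share alone in list 1, the counting half-width with bins of 50 kb as units was 13.6 points. Neighbouring bins are not independent and the flanks do not enter it, so it is a yardstick and not a test. In list 1 the difference of this block from its flanks was 11.99 percentage points, smaller than the yardstick. It was 5.56 points against the left flank alone, 7.96 with flanks of 0.5 Mb and 21.8 with flanks of 2 Mb. In list 2 the block's difference was 18.4 points, just above a half-width of 18.2. The distal KRTAP block, at 33.7 and 32.9 points, also lay just above its half-width of 32.6. The remaining clusters exceeded theirs by more in both lists. The 5 clusters exceeded the left flank alone and the right flank alone in both lists. When only peaks whose −log10 q reached 2 were kept, 1 was left in the clusters, and the direction turned in list 2 for the 3 clusters that lost all their peaks while their flanks kept some.

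**Figure D2:**
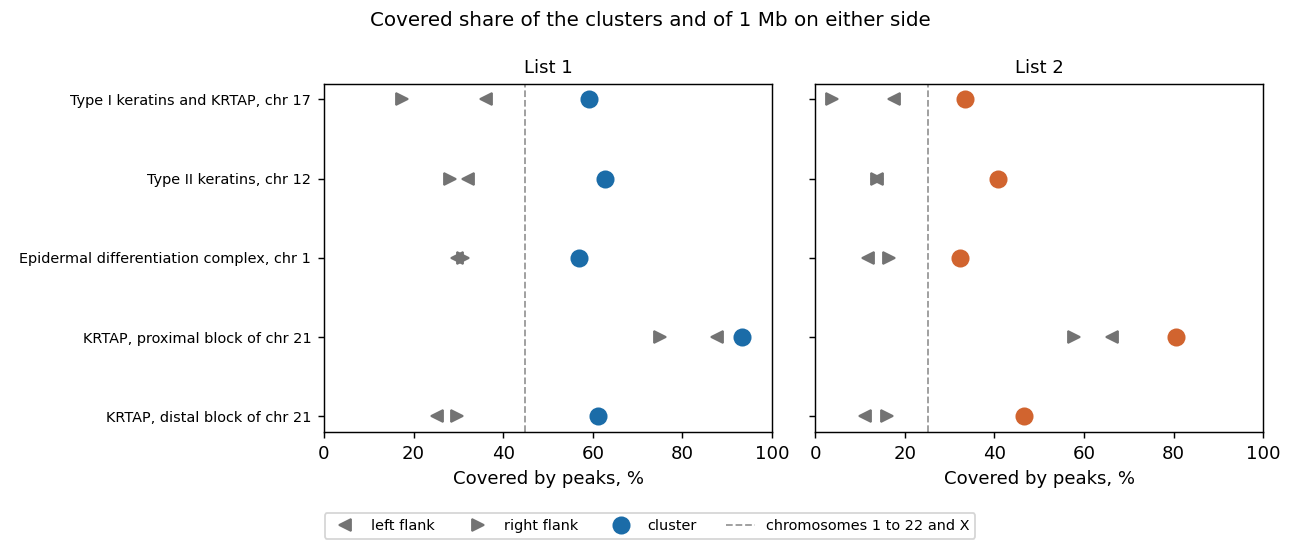
Share of base pairs covered by peaks (horizontal axis, %) in each cluster (dots) and in the 1 Mb to its left and right (triangles), for list 1 and list 2, with the share over chromosomes 1 to 22 and X dashed. All 10 dots lie to the right of both triangles of their cluster, and the proximal block of chromosome 21 alone has flanks beyond the dashed line.

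Counted in bins of 50 kb, dense coverage reached most of the clusters in list 1 and fewer bins in list 2, whose peaks start at a higher fold. At least 50% was covered in 66 of 91 bins (72.5%) of list 1, against 45.6% of all 60678 bins of chromosomes 1 to 22 and X. In list 2 these were 31 of 91 bins (34.1%), against 16.6%. The proximal KRTAP block held 16 and 15 of them. Without it, 50 of 75 bins (66.7%) were dense in list 1 and 16 of 75 (21.3%) in list 2, the latter close to the background. In the flanks of these 4 clusters, 22 of 160 bins were dense in list 1 and 7 of 160 in list 2. Of all 60678 bins, 5266 in list 1 and 8510 in list 2 held no peak, against 0 and 1 of the 91 cluster bins. The empty bins include assembly gaps, which lower the background shares. Bins ranked much alike in both lists: Spearman's rho over the 91 cluster bins was 0.931 and Pearson's r was 0.906, a description over neighbouring bins that are not independent. The 200 flank bins gave 0.918 and 0.950, so this likeness was not particular to the clusters.

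**Figure D3:**
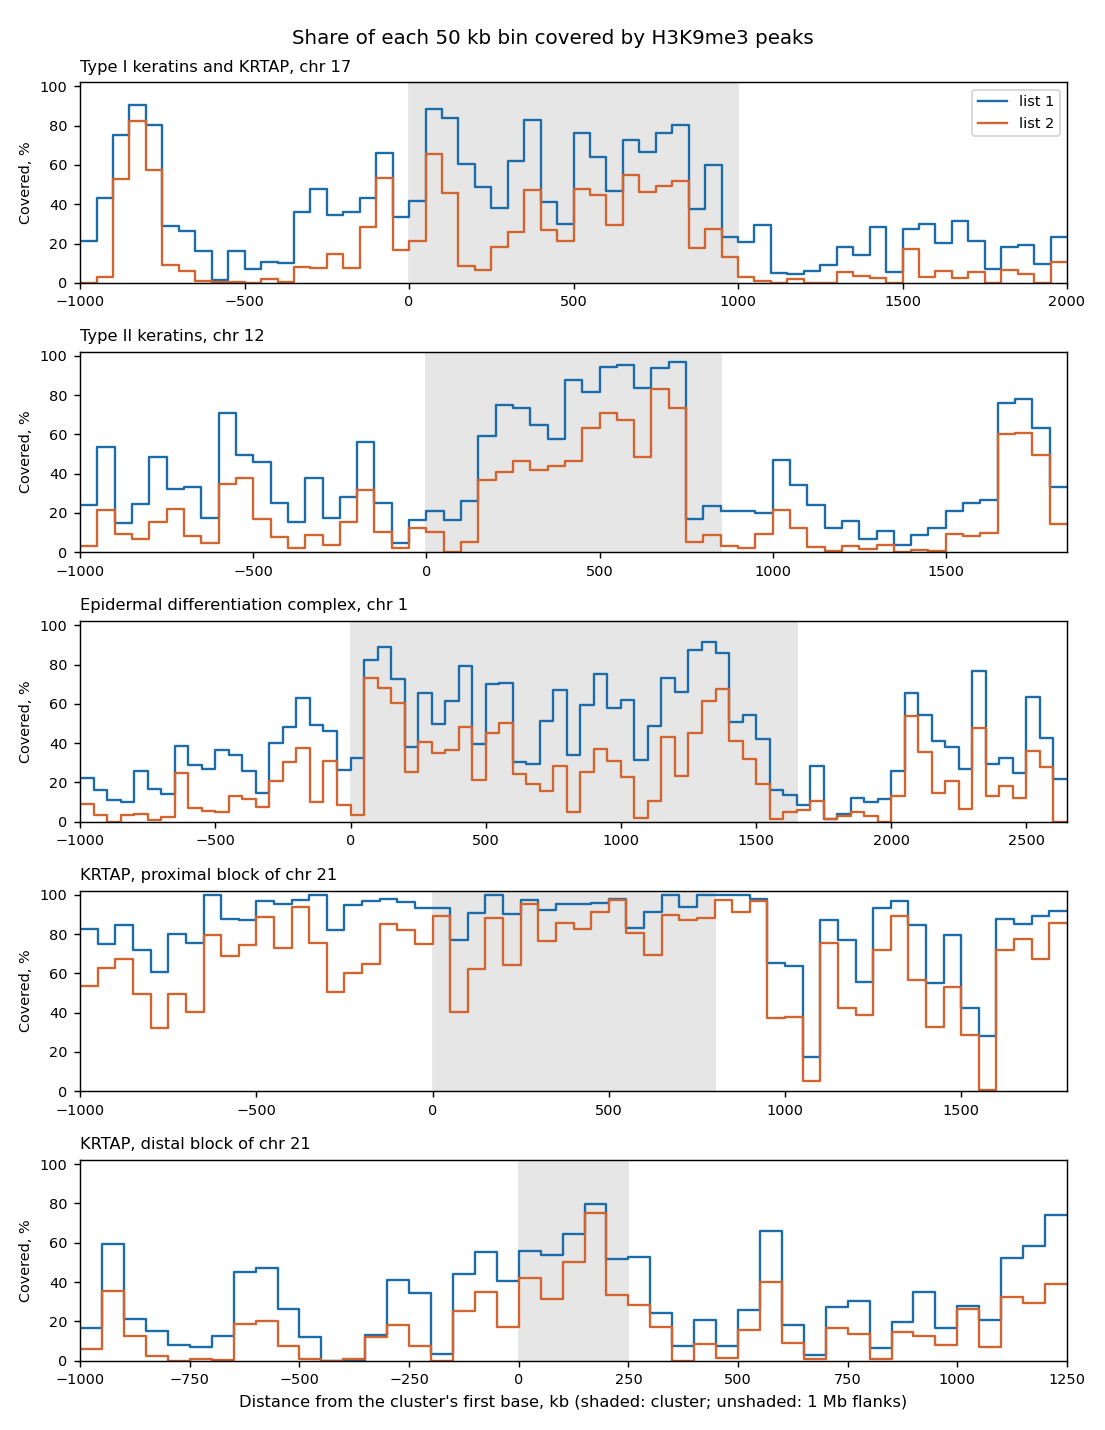
Share of each 50 kb bin covered by peaks (vertical axis, %) along each cluster (shaded) and its 1 Mb flanks, against the distance in kb from the first base of the cluster, for list 1 and list 2. The type II keratin cluster shows a dense block with sparse ends, and the proximal block of chromosome 21 lies inside a stretch that is dense on both sides.

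The type II keratin cluster was a dense block between sparse ends. The first 3 bins, from 52500001 to 52650000, averaged 21.2% ± 4.75 (SD over bins) in list 1 and 5.20% ± 5.29 in list 2. The next 12 bins, up to 53250000, averaged 80.2% ± 14.2 and 55.3% ± 15.4, and the last 2 bins fell back to 20.2% ± 4.78 and 6.98% ± 2.54. These stretches were chosen after the bins had been seen. The bins of the block lay between 57.6% and 96.7% in list 1 and between 36.7% and 83.2% in list 2. They did not overlap with those of either end, which was built into this choice of stretches and adds no support. In gene order the cluster starts with KRT80 and KRT7 and ends with KRT8 and KRT18, the keratins of simple, single-layered epithelia. Between them lie the hair keratins KRT81 to KRT86, the basal and stratified epithelial keratins KRT5 and KRT6A to KRT6C, the hair follicle keratins KRT71 to KRT75, and KRT1 and KRT2 of the upper epidermis.

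The most covered bin of the block, from 53150001 to 53200000, reached 93.9% (list 1) and 83.2% (list 2). The least covered bin of the cluster, from 52550001 to 52600000, had 16.5% and 0%. In list 2 it lay within a peak-free stretch of 87.4 kb from 52529974 to 52617374, in which list 1 held 11 peaks over 18.1% of the length. When peaks less than 10 kb apart were joined, 1 domain of list 1 ran for 634 kb, from 52618565 to 53252653, over 74.6% of the cluster. The longest domain of list 2 ran for 316 kb, from 52935307 to 53250914. Both ended within 2 kb of each other at the distal edge of the block. Just beyond it, from 53252654 to 53283557, neither list held a peak for 30.9 kb.

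In the sparse distal end of the type II keratin cluster lay the list 2 peak with the highest fold in the 5 clusters. Its fold enrichment was 3.44, below the 4.58 reached in the flanks, with a −log10 q of 2.168. It ran from 53286073 to 53287605. Its width of 1533 bp was close to the list 2 median of 1564 bp over chromosomes 1 to 22 and X. One peak of list 1 covered the whole of it. Fold, −log10 p and −log10 q are the authors' own values for each peak.

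The epidermal differentiation complex was uneven, with dense stretches towards both ends and sparse outermost bins. The bins from 152000001 to 152150000 averaged 81.4% ± 8.13 in list 1 and 67.2% ± 6.28 in list 2 (SD over 3 bins). Those from 153200001 to 153350000 averaged 88.2% ± 2.83 and 58.1% ± 11.6. The 21 bins between them averaged 55.3% ± 16.1 and 27.98% ± 13.5, with ranges of 29.2% to 79.5% in list 1 and 1.82% to 50.3% in list 2. After the distal dense stretch, the 3 bins from 153350001 to 153500000 averaged 49.0% ± 6.38 and 30.7% ± 10.9. The outermost bins were sparse, at 32.5% and 3.33% in the first bin and 14.9% ± 1.68 and 3.09% ± 2.62 in the last 2, and these stretches were likewise chosen after the bins had been seen. In gene order the complex begins with S100A10 and S100A11 and then the filaggrin family from TCHHL1 (trichohyalin-like) to CRNN (cornulin). The LCE genes follow, then IVL (involucrin), the SPRR genes, LORICRIN, the peptidoglycan recognition genes PGLYRP3 and PGLYRP4, and the S100A genes from S100A9 to S100A1.

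The widest peak of the complex in list 1 was 47.9 kb, from 153274480 to 153322402, and in list 2 26.1 kb, from 153334878 to 153360986. A joined domain of the distal dense stretch ended at nearly the same place in both lists, from 153075459 to 153387609 (312 kb) in list 1 and from 153100035 to 153386462 (286 kb) in list 2. The most covered bin by the lower of the lists began at 152000001, at 82.3% and 73.1%, and the least covered began at 153500001, at 16.1% and 1.24%.

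The longest stretch without a peak in either list, over all 5 clusters, lay within the complex. It ran for 34.4 kb from 152555546 to 152589990. In list 1 the peak-free stretch was 34.7 kb, from 152555252, and list 2 covered 0.846% of that. At its distal edge, from 152590081 to 152592515, lay the peak with the highest fold of list 2 in the complex, at 3.18 with a −log10 q of 1.69, which list 1 covered in full. The LCE genes include LCE3B and LCE3C, which a common inherited deletion is known to remove in humans. Whether U2OS carries it, and whether these genes lie in the stretch on hg19, was not tested.

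The type I keratin and KRTAP cluster alternated between more and less covered stretches, which were chosen after the bins had been seen. Bins 2 and 3, from 38850001 to 38950000, averaged 86.1% ± 3.09 in list 1 and 55.6% ± 14.3 in list 2. The next 3, up to 39100000, averaged 49.1% ± 11.3 and 11.1% ± 6.45. The 7 bins from 39100001 to 39450000 averaged 57.6% ± 19.1 and 34.8% ± 11.4, and the 4 bins from 39450001 to 39650000 averaged 73.9% ± 5.80 and 50.6% ± 3.66. The last 3 averaged 40.3% ± 18.4 and 19.4% ± 7.12. In gene order the cluster runs from KRT24 to KRT40, through the KRTAP genes (families 3, 1, 2, 4 and 9 and 3 single genes), to the hair keratins KRT31 to KRT38 and ends with KRT13, KRT15, KRT19, KRT9, KRT14, KRT16 and KRT17, which include the keratins of basal and activated epidermis. The most covered bin, from 38850001 to 38900000, was covered 88.3% and 65.7%. The least covered by the lower of the lists, from 39000001 to 39050000, was covered 48.8% and 6.33%, where the lists were far apart.

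The widest peak of this cluster in list 2 was 21.97 kb, from 39455092 to 39477057, and list 1 covered all of it. In list 1 the widest was 27.1 kb, from 38913230 to 38940302, of which list 2 covered 65.9%. Neither list held a peak from 39765027 to 39787641, a stretch of 22.6 kb near the distal limit. Beside its start list 2 had its highest fold here, 2.92, in a peak of 425 bp from 39762544 to 39762968. A stretch of 41.4 kb inside the cluster, from 39236735 to 39278096, was free of list 2 peaks and covered 3.22% by list 1. The flanks were unequal: 36.2% and 17.6% on the left against 17.4% and 3.65% on the right. The highest flanking bins reached 90.3% and 82.3%, above any bin of the cluster.

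The KRTAP genes of this cluster include copies that are nearly alike, for which short reads can be hard to place. Among the 33 promoters of chromosome 17 KRTAP genes, 6 were at least 90% identical to another of them in a global alignment, with a median of 67.2% to the closest relative. In the other families with 2 or more promoters, such pairs were LCE2C with LCE2D (92.4%) and S100A7 with S100A7A (96.3%). How this moved with peak calling was not tested. The closest KRTAP pair, KRTAP9-2 and KRTAP9-9, was 92.8% identical and shows how alike the copies are. Capitals mark letters without an identical partner in the alignment, 17 in each, of which 5 at the 5′ end of KRTAP9-2 and 5 at the 3′ end of KRTAP9-9 come from an offset between the windows. Both lie on the plus strand of GRCh38.p14, at chr17:41226398-41226697 and chr17:41255134-41255433.
KRTAP9-2: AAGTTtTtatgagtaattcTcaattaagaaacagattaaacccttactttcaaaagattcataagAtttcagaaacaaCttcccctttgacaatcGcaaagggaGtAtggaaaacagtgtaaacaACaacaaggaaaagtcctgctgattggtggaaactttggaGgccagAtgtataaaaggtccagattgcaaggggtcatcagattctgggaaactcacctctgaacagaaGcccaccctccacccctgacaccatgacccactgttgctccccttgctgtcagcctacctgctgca
KRTAP9-9: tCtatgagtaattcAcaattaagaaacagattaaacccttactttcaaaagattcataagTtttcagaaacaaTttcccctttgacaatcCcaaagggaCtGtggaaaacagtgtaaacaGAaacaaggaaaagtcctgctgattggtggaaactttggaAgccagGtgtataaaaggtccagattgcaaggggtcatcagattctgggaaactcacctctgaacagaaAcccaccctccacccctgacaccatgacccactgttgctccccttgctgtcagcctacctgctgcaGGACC

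The proximal KRTAP block of chromosome 21 was covered almost throughout, and was part of a longer dense stretch. Its 16 bins ranged from 77.2% to 100% (median 94.6%) in list 1 and from 40.2% to 97.4% (median 86.3%) in list 2. Peaks less than 10 kb apart joined into 1 domain over the whole block in both lists. The domain ran for 1862 kb in list 1, from 30681828 to 32544218, and for 1231 kb in list 2, from 31309287 to 32540552, so it passed both limits of the block. The 100 kb inside each limit were covered less than the 100 kb outside it. Inside minus outside was −9.54 percentage points at the proximal and −3.05 at the distal limit in list 1, and −13.5 and −6.53 in list 2. The longest peak-free stretch inside the block was 7.05 kb in list 1 and 9.63 kb in list 2. Its members in gene order run from KRTAP24-1 to KRTAP19-8 and encode mostly glycine- and tyrosine-rich or high-sulfur hair matrix proteins.

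This block also held the widest peaks of the 5 clusters. In list 1 the widest was 192 kb, from 32242397 to 32434330, which crossed the distal limit and was covered 93.8% by 6 peaks of list 2. In list 2 it was 44.2 kb, from 31992968 to 32037181, covered 97.5% by list 1. The highest folds of the block lay at the same place, 2.45 in list 1 from 32092301 to 32103138 and 3.002 in list 2 from 32093375 to 32099806.

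The distal KRTAP block of chromosome 21 was short and more covered than its flanks. Its longest joined domain passed the distal limit in both lists, ending at 46184906 in list 1 and 46179099 in list 2. All 5 bins of the block were dense in list 1, but only 2 in list 2. Its 5 bins were covered 55.8%, 54.0%, 64.4%, 79.5% and 51.6% in list 1 and 42.3%, 31.5%, 50.4%, 75.2% and 33.2% in list 2, in order along the chromosome. The bin from 46050001 to 46100000 was highest in both lists. None of the 40 flanking bins was dense in list 2, where the highest flanking bin was covered 40.3%, and 7 were dense in list 1, the highest at 73.9%. The widest peak was 23.1 kb in list 1, from 46023672 to 46046777, and 18.9 kb in list 2, from 46076068 to 46094949. This block holds the KRTAP10 and KRTAP12 genes, which encode high-sulfur hair proteins. Their promoters held a median of 4 CpG, above the 2 of the proximal block.

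Peaks inside the clusters were wider than in the flanks, mainly in list 1. The median width over the 5 clusters was 2830 bp in list 1 against 1559 bp in the flanks, a ratio of 1.82, and 1951 bp against 1675 bp in list 2, a ratio of 1.16. By cluster the medians in list 1 were 2985 bp for type I keratins and KRTAP, 2834 bp for type II keratins, 2162 bp for the epidermal differentiation complex, 19401 bp for the proximal and 2832 bp for the distal KRTAP block. In list 2 they were 1602, 2220, 1606, 7787 and 2087 bp. Each of these exceeded the median of the cluster's own left and right flanks pooled. In list 2 the type I keratin cluster and the epidermal differentiation complex lay below the 1675 bp of all flanks together. Against single flanks there was 1 exception, the left flank of the type I keratin cluster in list 2, where the median was 2182 bp. Peaks of at least 10 kb made up 85 of 458 (18.6%) in list 1, against 9.62% of all its peaks, and 54 of 478 (11.3%) in list 2, against 4.45%. In the flanks the shares were 8.26% in list 1 and 8.61% in list 2. The type I keratin cluster in list 2 had a lower share (5.13%) than its flanks (6.25%). The proximal KRTAP block held 21 and 27 of the wide peaks. Without it and its flanks, the shares were 14.9% in the clusters and 4.25% in the flanks in list 1, and 6.46% and 3.13% in list 2.

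**Figure D4:**
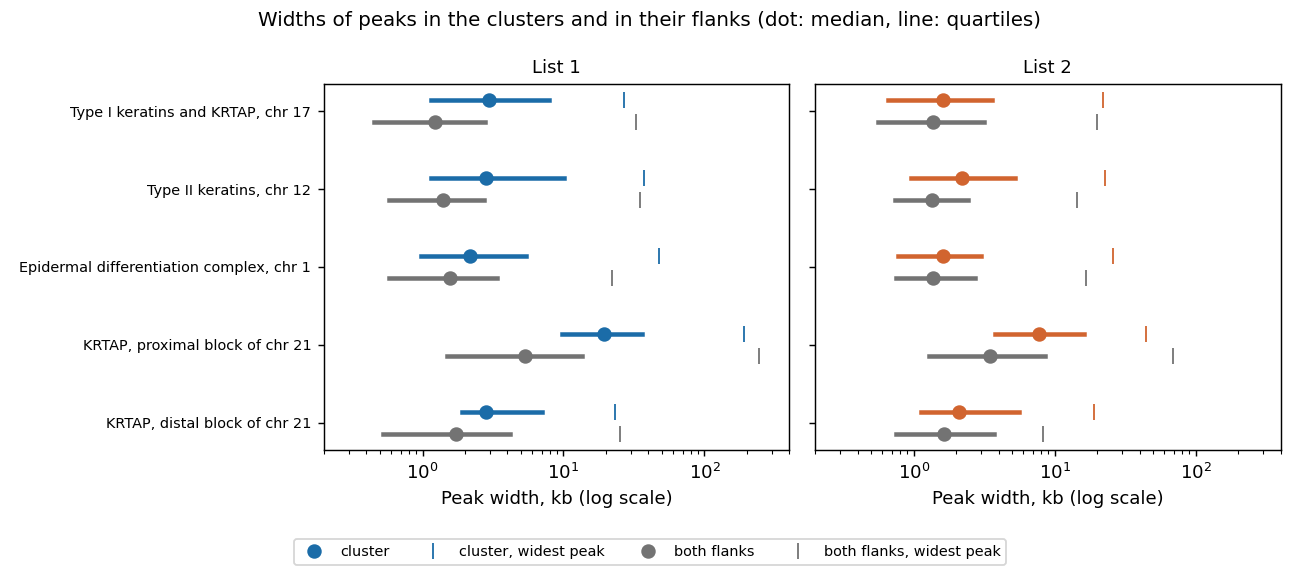
Widths of the peaks that overlap each cluster (coloured) and its flanks (grey), in kb on a log scale, with medians as dots, quartiles as lines and the widest peak as a tick, for list 1 and list 2. The coloured median lies to the right of the grey one in all 5 clusters and both lists, with the proximal block of chromosome 21 farthest out.

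The number of peaks moved differently between clusters. In list 2 the 4 clusters without the proximal KRTAP block each held more peaks per length than their flanks, together 11.1 per 100 kb against 5.60, while in list 1 the numbers were 11.5 and 10.6. In list 1 the type II keratins went the other way, with 8.71 per 100 kb against 11.3. The proximal KRTAP block held fewer and wider peaks than its flanks in both lists, at 3.5 against 6.65 per 100 kb in list 1 and 7.5 against 9.55 in list 2. Without the proximal block, neighbouring peaks lay a median of 2989 bp apart inside and 6360 bp apart in the flanks in list 2, and 2027 and 3965 bp in list 1.

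Enrichment within these peaks was low, as it was in the flanks. The median fold was 1.71 inside and 1.60 in the flanks in list 1, and 2.19 and 2.18 in list 2. The highest fold in the clusters was 2.45 in list 1 and 3.44 in list 2, below the 3.17 and 4.58 reached in the flanks. In list 1, 0 of 458 cluster peaks had a q-value of 0.05 or lower, against 0.19% of all its peaks. In list 2 there were 8 of 478, against 2.07%. Of the 8, the epidermal differentiation complex held 5, and the distal KRTAP block held 0. In the flanks these were 8 of 981 peaks in list 1 and 31 of 639 in list 2.

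By an overlap of at least 1 bp, the lists shared more of their peaks in the clusters than in the flanks, but for list 2 this turned with a stricter overlap. Of the list 1 peaks in the clusters, 274 of 458 (59.8%, Wilson 95% interval 55.3 to 64.2%) had a partner in list 2 by at least 1 bp, against 50.8% of all list 1 peaks and 406 of 981 (41.4%) in the flanks. Of the list 2 peaks, 456 of 478 (95.4%, 93.1 to 96.9%) had a partner in list 1, against 90.1% of all and 584 of 639 (91.4%) in the flanks. The intervals cover counting error only. When the overlap had to reach 50% of both peaks, 23.1% of list 1 cluster peaks had a partner against 16.5% of flank peaks, and 22.2% of list 2 cluster peaks against 25.4%. In the proximal KRTAP block 60 of 60 list 2 peaks had a partner by at least 1 bp. More covered length raises the chance of overlap, and its part was not tested. By length, 85.6% to 97.9% of what list 2 covered in a cluster was also covered by list 1, with the lowest value in the distal KRTAP block. Most list 2 length was shared in the flanks too. In those of the distal block, list 2 covered 13.6% and both lists 11.9%. For type I keratins and KRTAP the flank values were 10.6% and 9.67%. High sharing by length was thus not particular to the clusters. As a Jaccard index, shared over combined covered length, the overlap was 0.829 in the proximal KRTAP block, 0.592 for type II keratins, 0.588 in the distal KRTAP block, 0.5001 for type I keratins and KRTAP and 0.488 for the epidermal differentiation complex, each above that of its flanks (0.720, 0.373, 0.410, 0.348 and 0.372 in the same order).

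The limits of the clusters were not themselves edges of coverage everywhere. The 100 kb inside a limit was covered more than the 100 kb outside it at 6 of 10 limits in each list. It was covered more by 27.1 and 31.7 percentage points at the distal limit of the distal KRTAP block (list 1 and list 2), and by 21.03 and 18.4 points at the proximal limit of the epidermal differentiation complex. At the distal limit of the complex the difference was −3.37 and −5.20 points.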

How the data were processed

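Input and H3K9me3 chromatin immunoprecipitation libraries of cross-linked U2OS cells were sequenced, with 2 samples each. The submitters' processing notes name MACS2 2.2.7.1, Bowtie2 2.5.0, bcl2fastq 2.17 and Trim Galore 0.6.7, with the build hg19. Caller settings, use of the input, duplicate handling and pooling were all not given in the sources used here. Each deposited peak has the authors' fold enrichment, a ratio over the caller's background, and the authors' −log10 p and −log10 q.

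Peaks were clipped at a region's limits for covered length, and counted whole for widths, folds and overlap (at least 1 bp). Backgrounds used chromosomes 1 to 22 and X, each up to its last peak, with assembly gaps counted as uncovered length. The design has no groups of lists, so no test was run. The peaks and bins named are the widest and highest-fold peak, the longest peak-free stretch, and the most and least covered bin per cluster. Stretches of bins, the shared peak-free stretches, the promoters shown and the searches for CpG and TATAAA were chosen after values had been seen. Planned protein identities were replaced by promoter identities, from global alignments made with Biopython. The members and lists were chosen with earlier results of these data known. Coverage and overlap steps recovered 100% of known answers on 20 simulated sets. Python 3.11.15 was used with matplotlib 3.10.9, pandas 2.3.3, numpy 2.4.6 and scipy 1.17.1. Coordinates are 1-based.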

Additional observations from a re-analysis of the deposited data

How the results depend on the processing

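The value followed here is the covered share of a cluster minus that of its flanks, in percentage points. A move was counted when it exceeded the half-width of a Wilson 95% interval of the cluster share alone, with 50 kb bins as units. That half-width is a yardstick and not a test, because neighbouring bins are not independent and the flanks do not enter it. The direction held in 76 of 79 alternatives: flanks of 0.5 and 2 Mb, either flank alone, the whole chromosome, peaks above the median fold, base pairs in both lists, list 1 restricted to the −log10 p range of list 2, and −log10 q of at least 2. These alternatives are not independent checks. Those on flanks reuse the same peaks, and base pairs in both lists give the same value counted once for each list. The 3 exceptions were list 2 at −log10 q of at least 2, with −0.325 points for type I keratins and KRTAP, −0.455 for the epidermal differentiation complex and −1.09 for the proximal KRTAP block, where no cluster peak was left. The type II keratins had 0.180 points there, from 1 peak. For list 1 and for the distal KRTAP block this limit left no peak in clusters or flanks. Against the whole chromosome the difference of the proximal KRTAP block rose to 58.6 points in list 1 and 59.4 in list 2. Whole-chromosome shares count assembly gaps as uncovered, which enlarges such differences by an amount that was not tested. The other clusters kept a smaller difference against the whole chromosome. It went from 26.6 to 13.4 points (list 1) and from 18.2 to 8.70 (list 2) for the epidermal differentiation complex, from 32.7 to 16.9 and from 27.0 to 15.9 for type II keratins, and in list 2 from 22.9 to 13.9 for type I keratins and KRTAP. The ratio of widths stayed within 1.5 times under its 3 alternatives in each list. Dense bins fell to 40.7% and 15.4% when at least 75% had to be covered, and to 21.3% in list 2 without the proximal block, an alternative chosen after seeing the data. With a reciprocal overlap of 50%, 23.1% of list 1 and 22.2% of list 2 cluster peaks had a partner (the flank shares at this overlap were added after seeing the data), and 89.3% of list 2 did among peaks above the median fold. No paired analysis was possible because each list was assigned to no sample. Depth is unknown.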
